A study of Mus musculus with 4 samples.

Results

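The immunoglobulin variable (V) segments of the mouse were taken from the deposited gene counts as every row whose symbol began with Ighv, Igkv or Iglv followed by a digit. They numbered 348 of the 55487 genes in the table, with 185 heavy chain (Ighv), 160 kappa light chain (Igkv) and 3 lambda light chain (Iglv) segments, and all 348 identifiers were found in the GENCODE M21 annotation of the GRCm38 build. That annotation gave 218 of them as functional V genes and 130 as pseudogenes. The Ighv segments lay on chromosome 12 between 113572927 and 116010093, with 183 of 185 on the minus strand. The Igkv segments lay on chromosome 6 between 67555497 and 70704177, with 75 on the plus and 85 on the minus strand, and the Iglv segments on chromosome 16 between 19085017 and 19260859.

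The RNA came from whole mammary fat pad (MFP) tissue of female C57BL/6J mice with no genetic alteration or treatment named in the labels, in 2 libraries from aged mice of 14 months and 2 from young mice of 8 weeks. Each library held total RNA depleted of ribosomal RNA from every cell type of the pad, so a lower level could come from fewer B lineage cells or from less RNA per cell, which cannot be told apart here. The labels call the libraries biological replicates without saying whether each came from a single animal, and p-values measure only the spread between these libraries.

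A B cell builds the variable region of its antibody by joining a V segment to a D and a J segment in the heavy chain, or to a J segment in the light chain, and its descendants keep that choice. A read on a V segment therefore reports which rearranged antibody genes the B lineage cells of a tissue transcribe, and a clone that grows, or a plasma cell that makes much antibody RNA, adds many reads of the same segment. Plasma cells carry far more immunoglobulin RNA than resting B cells, and fat depots and their draining lymph nodes hold both kinds of cell, including innate-like B-1 cells that use a restricted set of V segments.

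The segments on which the usage turned share most of their bases with relatives, which bears on how reads can be assigned. Of 6 of them the last 300 bases (298 for Igkv14-126) of the V exon are given 5′ to 3′ on the coding strand from GENCODE M21 on GRCm38, all in coding exon sequence. Capitals mark the bases that differ from the segment named as compared. The pair Ighv14-4 (chr12:114176438-114176737, minus strand) and Ighv14-3 (chr12:114059845-114060144, minus strand), the first and the third heavy segments of aged replicate 2, are compared with each other and are identical in 95.1% of the aligned exon.
Ighv14-4: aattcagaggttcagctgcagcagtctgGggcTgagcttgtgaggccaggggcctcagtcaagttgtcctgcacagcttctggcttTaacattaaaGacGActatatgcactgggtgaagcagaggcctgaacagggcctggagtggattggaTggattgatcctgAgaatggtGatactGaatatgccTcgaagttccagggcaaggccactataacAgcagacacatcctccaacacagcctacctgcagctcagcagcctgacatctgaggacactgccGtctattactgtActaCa
Ighv14-3: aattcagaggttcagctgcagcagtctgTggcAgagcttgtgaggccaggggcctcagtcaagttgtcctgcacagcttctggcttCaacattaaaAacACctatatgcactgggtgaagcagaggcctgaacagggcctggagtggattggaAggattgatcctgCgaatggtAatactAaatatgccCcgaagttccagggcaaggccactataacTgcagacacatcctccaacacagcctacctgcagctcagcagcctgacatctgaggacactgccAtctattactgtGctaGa
Ighv11-2 (chr12:114048241-114048540, minus strand), the first heavy segment of aged replicate 1, is compared with Ighv11-1, from which only 4 bases of the stretch shown differ (98.7% identity over the exon).
Ighv11-2: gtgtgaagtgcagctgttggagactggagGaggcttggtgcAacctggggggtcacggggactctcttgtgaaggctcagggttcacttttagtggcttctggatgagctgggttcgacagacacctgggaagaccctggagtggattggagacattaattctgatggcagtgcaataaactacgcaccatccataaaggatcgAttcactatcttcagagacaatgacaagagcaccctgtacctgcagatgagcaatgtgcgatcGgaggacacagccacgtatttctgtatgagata
Igkv14-126 (chr6:67896345-67896642, plus strand) is the V segment that DESeq2 called between the ages, and is compared with Igkv14-111, its nearest functional relative at 90.9% identity.
Igkv14-126: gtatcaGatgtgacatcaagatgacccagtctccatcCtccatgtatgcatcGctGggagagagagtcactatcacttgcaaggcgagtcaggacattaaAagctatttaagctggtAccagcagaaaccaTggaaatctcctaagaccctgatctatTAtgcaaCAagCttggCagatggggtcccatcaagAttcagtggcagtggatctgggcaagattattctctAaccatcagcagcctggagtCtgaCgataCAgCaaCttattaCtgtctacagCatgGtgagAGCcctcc
Igkv3-2 (chr6:70698768-70699067, plus strand) and Igkv3-5 (chr6:70663596-70663895, plus strand) were among the 4 leading kappa segments in both aged libraries and are compared with each other at 90.6% identity.
Igkv3-2: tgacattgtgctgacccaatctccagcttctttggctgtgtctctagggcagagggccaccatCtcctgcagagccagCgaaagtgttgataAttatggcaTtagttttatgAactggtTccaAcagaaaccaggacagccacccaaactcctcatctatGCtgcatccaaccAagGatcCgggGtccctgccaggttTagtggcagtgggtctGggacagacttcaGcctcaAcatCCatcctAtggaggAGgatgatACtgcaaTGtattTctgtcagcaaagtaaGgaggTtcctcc
Igkv3-5: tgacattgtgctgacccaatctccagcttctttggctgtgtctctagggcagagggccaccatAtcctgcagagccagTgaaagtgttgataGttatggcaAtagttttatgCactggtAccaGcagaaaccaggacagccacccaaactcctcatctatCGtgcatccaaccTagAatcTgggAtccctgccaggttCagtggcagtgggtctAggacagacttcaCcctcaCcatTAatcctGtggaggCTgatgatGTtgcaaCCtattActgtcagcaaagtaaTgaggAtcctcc

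Young replicate 1 stood apart from the other libraries before any V segment was considered. Glycam1, a mucin of lymph node venules and of milk, had 34255 counts there against 0 in aged replicate 1, 29 in aged replicate 2 and 0 in young replicate 2. Chst4, a sulfotransferase of the same venules, had 402 counts there against 0, 1 and 0. The summed level of 12 B cell markers was 931 CPM in young replicate 1 against 13.7 and 110 CPM in the aged libraries and 8.11 CPM in young replicate 2, where CPM are counts per 1e+06 of the TMM-scaled library total. The 10 T cell markers summed to 911 CPM in that library and to 17.0, 73.4 and 9.996 CPM in the same 3 others. For the 8 genes of lymph node stroma and high endothelium the sum was 455 CPM in young replicate 1 and 31.9, 31.0 and 15.9 CPM elsewhere, of which Glycam1 gave 418 CPM in young replicate 1. Clca3a1, another gene of that list, was lowest there, at 6.32 CPM against 31.0, 27.0 and 15.1 CPM, and Ccl21a was at 0 counts in all 4. The part of this lymph node signal in the V segment differences between the ages was not tested, so values are given per library, and the main age differences also without young replicate 1. Library totals ran from 68803304 to 98402403 counts, at which 3 counts, taken as the detection limit, were worth 0.0337 to 0.0406 CPM.

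The V segments were transcribed at widely different levels in the 4 libraries, and the libraries of an age differed more than the ages did. Values listed without further words are in the order aged replicate 1, aged replicate 2, young replicate 1 and young replicate 2. The V segments took 2898 counts in aged replicate 1, 56860 in aged replicate 2, 9300 in young replicate 1 and 70 in young replicate 2. On the scaled level these were 35.4, 638, 113 and 0.948 CPM. The aged replicates thus differed 18.0-fold and the young replicates 120-fold, and aged replicate 1 lay between the young ones. Aged MFP averaged 337 ± 426 CPM (SD, n = 2) against 57.2 ± 79.5 CPM (SD, n = 2) for young MFP, which is a log2 ratio of 2.56. Without young replicate 1 the log2 ratio was 8.47, and without aged replicate 2 it was -0.69. With 2 libraries against 2 an exact two-sided permutation test cannot give a p below 0.333, and none was run on the sum. The heavy segments took 35.6%, 37.6%, 41.7% and 35.7% of the V counts of the libraries in the same order, so the heavy chain share stayed in a narrow range across these levels.

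**Figure D1:**
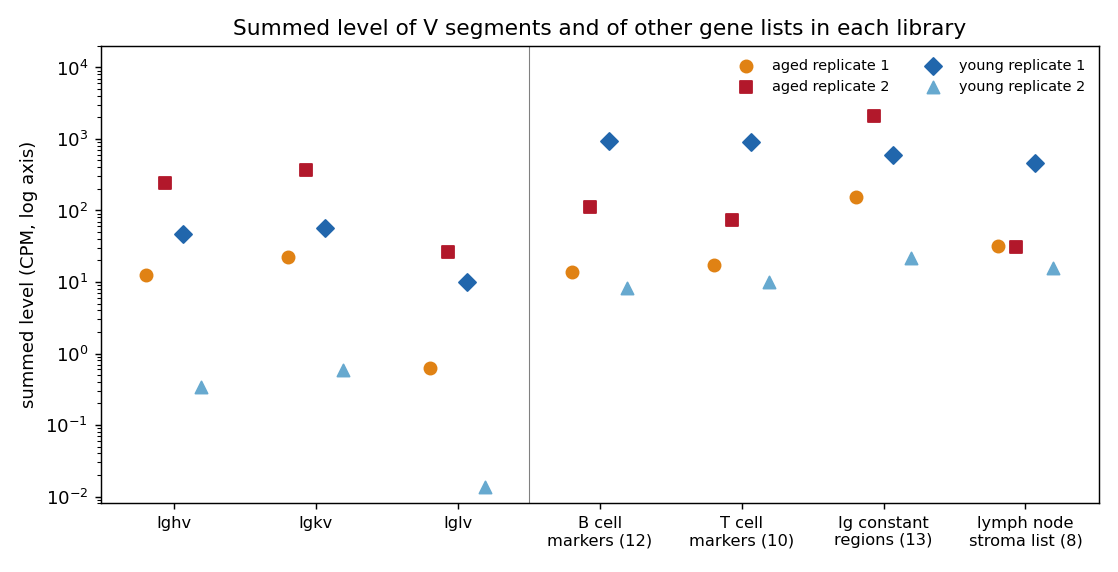
Summed level of the V segments of each locus (left of the line) and of 4 other gene lists (right), in CPM on a log axis, with 1 point per library. V segment levels ran from aged replicate 2 down to young replicate 2 in each locus, while the B cell, T cell and lymph node lists were highest in young replicate 1.

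Detection followed neither age nor the amount of V RNA alone. More than 3 counts were found for 97 segments in aged replicate 1, 168 in aged replicate 2, 192 in young replicate 1 and 5 in young replicate 2. Young replicate 1 thus showed the most segments, at a lower V level than aged replicate 2. Its Ighv and Igkv segments detected were 95 and 94, against 87 and 78 in aged replicate 2. The means were 132.5 ± 50.2 segments (SD, n = 2) in aged and 98.5 ± 132 (SD, n = 2) in young MFP, and the ages overlapped. The difference of 34 segments became 127.5 without young replicate 1 and -59.5 without young replicate 2. Across the libraries 204 segments were detected at least once, 144 in none, and 107 had no count at all. Functional genes made up nearly all of the detected set, with 188 of 218 detected against 16 of 130 pseudogenes. The pseudogenes together took 11, 55, 138 and 1 counts, and the highest of them was Ighv1-2 with 22 counts in young replicate 1. Detected in each of the 3 libraries with more V reads were 89 segments, whereas 29 were detected in young replicate 1 alone, 10 in aged replicate 2 alone, 1 in aged replicate 1 alone and 0 in young replicate 2 alone. Ighv1-31, with 5 and 6 counts in aged against 3 and 0 in young MFP, was the 1 segment past the limit in both aged and neither young library.

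At equal numbers of V reads the order of the 3 richer libraries was plain. With 2898 reads drawn from each, 130 segments would carry at least 1 read in aged replicate 1, 137 in aged replicate 2 and 207 in young replicate 1. For Ighv at 1032 reads the numbers were 66, 66.9 and 100, and for Igkv at 1814 reads they were 61, 66.6 and 105. Both aged libraries gave near-equal numbers although their V levels differed 18.0-fold. At 70 reads, all that young replicate 2 offered, the expected numbers were 38.1 and 34.6 in the aged libraries, 50.9 in young replicate 1 and 41 in young replicate 2. The second young library therefore lay nearer to the aged libraries than to young replicate 1 at that depth.

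Heavy chain usage was concentrated on few segments in each aged library and spread in young replicate 1. Ighv11-2 led aged replicate 1 with 154 of 1032 Ighv counts, 14.9% (Wilson 95% interval 12.9 to 17.2%). Ighv14-4 led aged replicate 2 with 4730 of 21358 counts, 22.1% (21.6 to 22.7%). Ighv1-26 led young replicate 1 with 173 of 3878 counts, 4.46% (3.86 to 5.16%). These intervals do not overlap, and they cover counting error only, since PCR copies of a molecule cannot be told from separate molecules here. In young replicate 2 the leader was Ighv1-85 with 5 of 25 counts, 20% (8.86 to 39.1%), too few reads to place its share among the others, and Ighv1-54 and Ighv1-39 followed with 4 and 2 counts. In each aged library 5 heavy segments held at least 5% of the reads, together 40.6% in replicate 1 and 52.6% in replicate 2, and in young replicate 1 there were 0. Ighv1-72 was the only heavy segment at 5% or more in both aged libraries, at 54 counts (5.23%) and 1476 counts (6.91%), against 68 counts in young replicate 1 and 0 in young replicate 2. Each 50-base window of its exon also occurs in another V segment, and it is 99.02% identical to Ighv1-62-3 (0, 18, 3 and 0 counts), so its counts cannot be assigned to it alone.

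The effective number of segments, the number of equally used segments that would give the same Shannon entropy, put these differences on a common scale. For Ighv it was 30.7 in aged replicate 1, 24.9 in aged replicate 2, 69.0 in young replicate 1 and 12.99 in young replicate 2, where the last rests on 25 reads. For Igkv it was 25.4, 24.0, 64.0 and 19.3, the last on 44 reads. The aged libraries thus lay close together, at 27.8 ± 4.09 (SD, n = 2) for Ighv and 24.7 ± 1.00 (SD, n = 2) for Igkv, whereas the young means of 41.0 ± 39.6 and 41.6 ± 31.6 (SD, n = 2) joined an even and a nearly empty library. The age difference was -13.2 for Ighv and -17.0 for Igkv, and these negative values rested on young replicate 1. Without that library they became 14.8 and 5.40. Young replicate 2 has reads on 16 Ighv and 24 Igkv segments, which its effective number cannot exceed, so this change of sign is not read. At 25 Ighv reads the expected segments with reads were 16.0 and 14.3 in aged libraries against 16 in young replicate 2. At 44 Igkv reads they were 21.3 and 19.5 against 24. The share of the leading segment averaged 6.30 percentage points higher in aged MFP for Ighv and 9.72 for Igkv. Without young replicate 1 the difference was -1.47 and 4.26, where the young share rests on 5 of 25 and 7 of 44 reads. Evenness is the entropy as a share of its highest possible value over the segments with reads. For Ighv it was 0.817 and 0.698 in the aged libraries, 0.894 in young replicate 1 and 0.925 in young replicate 2. The last value rests on 25 reads over 16 segments, too few to compare it with the others. The 8 most used heavy segments reached 50% of the Ighv reads in aged replicate 1, against 5 in aged replicate 2 and 20 in young replicate 1, and for Igkv these numbers were 5, 5 and 18.

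**Figure D2:**
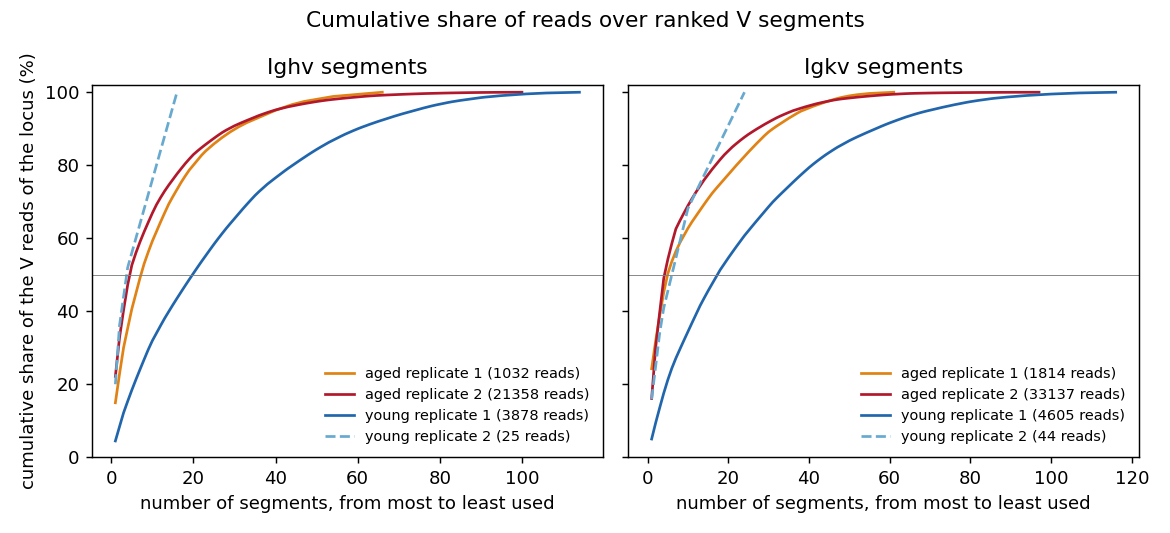
Cumulative share of the Ighv (left) and Igkv (right) reads against the number of segments, ranked from most to least used, with 1 line per library and its reads in the legend. The curves of both aged libraries climb steeply and reach 50% of the reads within 8 segments, while that of young replicate 1 needs 20 for Ighv and 18 for Igkv; the dashed curve of young replicate 2 rests on 25 and 44 reads.

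The leading heavy segments were not shared between the aged libraries. Ighv14-4 had 12 counts in aged replicate 1, 4730 in aged replicate 2, 67 in young replicate 1 and 0 in young replicate 2. Its relative Ighv14-3 had 0, 1633, 49 and 0 counts. Both segments were thus abundant in aged replicate 2 alone. In the sequences, 15 capitals separate the stretches shown and 75.0% and 80.1% of their 50-base windows occur in no other V segment. The Ighv14 family, 4 segments, held 30.4% of the heavy reads in aged replicate 2 against 2.52% in aged replicate 1 and 6.45% in young replicate 1. Ighv6-3 (chromosome 12, 114391712 to 114392169) followed the same pattern with 20, 2252, 48 and 0 counts. Ighv1-55 and Ighv1-53, next after Ighv11-2 in aged replicate 1 at 7.85% and 7.27%, belonged to the large Ighv1 family, which held 49.0%, 38.7% and 57.0% of the reads in aged replicate 1, aged replicate 2 and young replicate 1. In young replicate 1 the segments after Ighv1-26 were Ighv8-8 with 151 and Ighv1-82 with 149 counts, 3.89% and 3.84%.

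Kappa usage was as concentrated, with a pair of related segments high in both aged libraries. Igkv3-2 had 440 counts in aged replicate 1, 4670 in aged replicate 2, 75 in young replicate 1 and 0 in young replicate 2. Its share of the Igkv reads was 24.3% (Wilson 95% interval 22.3 to 26.3%) in aged replicate 1, 14.1% (13.7 to 14.5%) in aged replicate 2 and 1.63% in young replicate 1. Igkv3-5 had 116, 3078, 49 and 0 counts, or 6.39%, 9.29% and 1.06% in the 3 richer libraries. In CPM both were higher in each aged library than in either young one, and the Igkv3 family held 34.5% and 25.7% of the kappa reads in the aged libraries against 7.58% in young replicate 1. Of the 50-base windows of the exon, 78.2% in Igkv3-2 and 46.7% in Igkv3-5 occurred in no other V segment, and Igkv3-10, the nearest relative of Igkv3-5 at 98.1% identity, had 29, 443, 61 and 0 counts.

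The other leading kappa segments of aged replicate 2 had few counts elsewhere. Igkv6-20 (chromosome 6, 70335841 to 70336507, minus strand) had 12, 5332, 32 and 2 counts and led aged replicate 2 with 16.1% (15.7 to 16.5%). Igkv4-80 (chromosome 6, 69016558 to 69017080, minus strand) had 7, 3171, 22 and 1 counts. Each thus owed its mean in aged MFP to replicate 2. Igkv1-110, at rank 3 in aged replicate 1 with 6.89%, was used more widely, with 125, 446, 184 and 3 counts. The nearest relative of Igkv6-20, Igkv6-29 at 98.3% identity, had 0, 1, 0 and 0 counts. Igkv1-117 led young replicate 1 with 230 counts, 4.99% (4.402 to 5.66%), followed by Igkv1-135 with 205 and Igkv19-93 with 190. These 3 had 29, 23 and 29 counts in aged replicate 1 and 629, 544 and 554 in aged replicate 2, where they held less than 2% each. In CPM all 3 were higher in aged replicate 2 than in young replicate 1. In young replicate 2, Igkv14-111 led with 7 of 44 counts, followed by Igkv4-57 and Igkv8-28 with 4 each. In each aged library 5 kappa segments held at least 5% of the reads, together 50.3% and 54.2%, against 0 segments in young replicate 1.

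**Figure D3:**
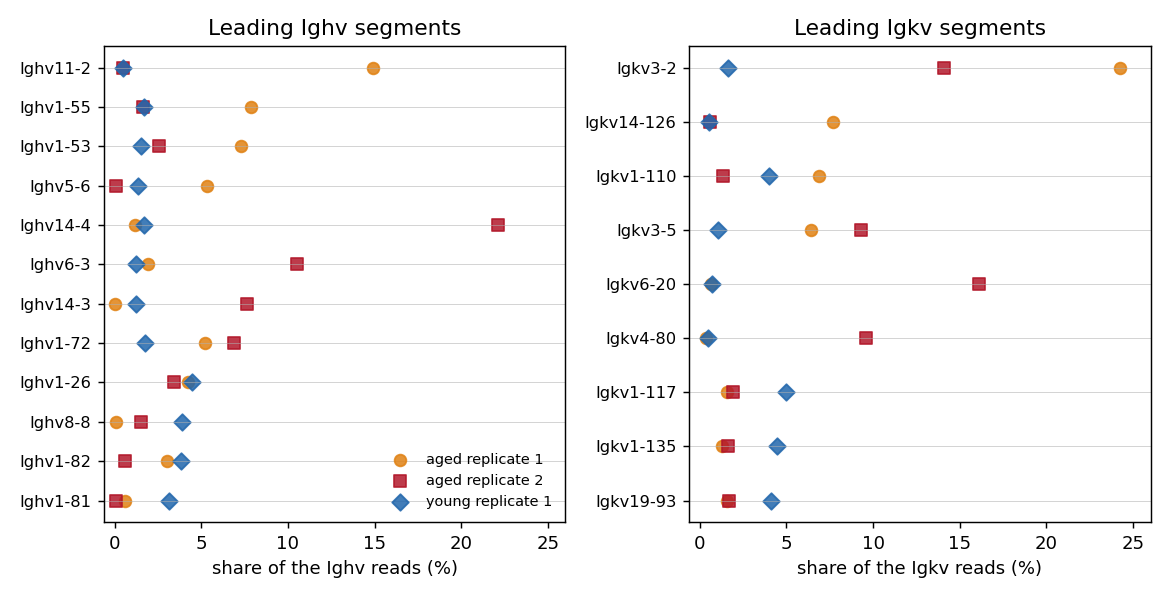
Share of the Ighv (left) and Igkv (right) reads, in percent, on the segments that ranked among the 4 most used in any of the 3 libraries with more than 1000 V reads, with 1 point per library. Igkv3-2 and Igkv3-5 are high in both aged libraries, Ighv11-2 and Igkv14-126 in aged replicate 1, Ighv14-4, Igkv6-20 and Igkv4-80 in aged replicate 2, and no segment of young replicate 1 reaches 5%.

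Overlap of usage, the sum over segments of the smaller share of a pair of libraries, was compared among the 3 libraries with more than 1000 V reads. For Ighv it was 34.1% between the aged libraries, 44.97% between aged replicate 1 and young replicate 1 and 49.0% between aged replicate 2 and young replicate 1. For Igkv these values were 48.6%, 48.3% and 41.0%. Of the 10 most used segments of each aged library, 3 were common to both in each locus.

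Lambda light chains rest on 3 V segments in this mouse strain, and the balance among them differed between libraries. Iglv1 had 37 counts in aged replicate 1, 2126 in aged replicate 2, 359 in young replicate 1 and 1 in young replicate 2. Iglv3 had 5, 93, 349 and 0 counts, and Iglv2 10, 146, 109 and 0. Iglv1 thus took 71.2% and 89.9% of the lambda V reads in the aged libraries and 43.9% in young replicate 1, where Iglv3 took 42.7%. Lambda segments together were 2.79% (Wilson 95% interval 2.13 to 3.64%) of the light chain V reads in aged replicate 1 and 6.66% (6.41 to 6.93%) in aged replicate 2. In young replicate 1 they were 15.1% (14.1 to 16.0%), and in young replicate 2 they were 2.22% (0.393 to 11.6%). The share of young replicate 1 thus lay above both aged shares, and the interval of young replicate 2 includes both.

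Aged was compared with young MFP gene by gene with edgeR's quasi-likelihood test, to ask whether any V segment differed with age beyond the spread between libraries. Of the 348 segments, 127 passed the filter on low counts, and 0 of 127 were called at a Benjamini-Hochberg adjusted p of 0.05, as in the whole table, where 0% of 22485 genes were called. The filter needs a minimum level in 2 libraries, so the 127 were chosen by level and do not stand for all members. At an unadjusted p of 0.05, 2 segments passed, Igkv1-122 and Igkv14-126, which is 1.57% of those tested against 10.5% of all genes. The fitted values of 110 segments were above 0 (higher in aged MFP) and those of 17 below, with a median of 1.51 on the log2 scale against -0.04 over all genes. Without aged replicate 2, 28 of 146 segments tested were above 0 and the median was -1.66. Segments then passed the filter by their level in a single library, and young replicate 1 had more V reads than aged replicate 1. The choice of segments thus shaped that direction, and it is not read. Without young replicate 1 the young arm was a library of 70 V reads assumed to vary like the aged ones, and the segments passed the filter through their aged levels, so the direction was fixed by the choice of segments and is not read. Of the 136 segments then tested 0 were called. Both aged libraries lay above both young libraries in 11 of the 127 segments, or 8.66%, and below in 0, where 46.1% of all genes tested had ages that did not overlap.

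Those 11 segments were Ighv1-53, Ighv1-55, Ighv1-58, Ighv1-71, Ighv2-3 and Ighv11-2 of the heavy chain and Igkv1-122, Igkv3-2, Igkv3-5, Igkv8-19 and Igkv14-126 of the kappa chain. The V exon of Ighv1-71 is identical to that of Ighv1-62-2, so reads of the V exon cannot tell these segments apart. Igkv1-122 (chromosome 6, 68016718 to 68017488, plus strand) had 13 counts in aged replicate 1, 1322 in aged replicate 2, 4 in young replicate 1 and 0 in young replicate 2. Its log2 fold change was 8.13 (SE 2.79, Benjamini-Hochberg adjusted p = 0.462 by edgeR), the largest of the V segments tested. Most of that size came from aged replicate 2, without which it was 2.59. Next were Igkv6-20 at 7.14 (SE 3.06, adjusted p = 0.503 by edgeR) and Igkv4-80 at 6.95 (SE 3.05, adjusted p = 0.506 by edgeR). Neither kept its direction without aged replicate 2, with -0.51 and -0.72. For Igkv3-2 the log2 fold change was 5.97 (SE 2.25, adjusted p = 0.483 by edgeR).

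The largest fitted decreases came from counts in young replicate 1. Ighv1-81 had 6, 21, 122 and 2 counts in that order of libraries, and its log2 fold change was -2.28 (SE 1.73, adjusted p = 0.606 by edgeR). For Iglv3 it was -1.94 (adjusted p = 0.752 by edgeR), and for Ighv10-3, with 0, 13, 42 and 0 counts, it was -1.78 (adjusted p = 0.728 by edgeR). Without young replicate 1 the values of Ighv1-81 and Iglv3 turned to 2.46 and 8.50, the latter against 0 counts in young replicate 2 and so no measured size.

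By DESeq2, the tool the study names for its own comparison, 1 of the 130 V segments with an adjusted p was called, where 3.86% of 22385 genes were called in all. That segment was Igkv14-126 (chromosome 6, 67896172 to 67896642, plus strand), with 139 counts in aged replicate 1, 199 in aged replicate 2, 24 in young replicate 1 and 1 in young replicate 2. The levels were 1.70 and 2.23 CPM in aged against 0.29 and 0.01 CPM in young MFP, so that the aged libraries lay close together and above both young ones. The log2 fold change was 3.68 with a Benjamini-Hochberg adjusted p of 0.0403 by DESeq2, and 3.66 (SE 1.25) with an adjusted p of 0.462 by edgeR. Leaving out each library in turn in edgeR moved it between 2.75 and 7.03. All 50-base windows of its exon were absent from every other V segment, and its relative Igkv14-111 had 27, 113, 112 and 7 counts, which overlapped between the ages.

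The heavy chain partner of Igkv14-126 in the antibodies of B-1 cells against phosphatidylcholine is known to be Ighv11-2, and that segment showed a similar pattern. It had 154 counts in aged replicate 1, 107 in aged replicate 2, 19 in young replicate 1 and 0 in young replicate 2, or 1.88, 1.20, 0.23 and 0 CPM. These levels did not overlap between the ages, with a log2 fold change of 3.70 (SE 1.49, Benjamini-Hochberg adjusted p = 0.495 by edgeR and 0.14 by DESeq2). Ighv11-2 ranked first among the heavy segments of aged replicate 1, 31st in aged replicate 2 and 58th in young replicate 1. Igkv14-126 ranked second, 31st and 52nd among the kappa segments of the same libraries, with 7.66%, 0.60% and 0.52% of the reads. The near-identical Ighv11-1 had 0 counts in all 4 libraries, although only 51.2% of the exon windows of each are found in no other V segment. The other known pair of such antibodies, chosen here after its values were seen, did not share the pattern. Ighv12-3 had 5, 22, 16 and 0 counts and Igkv4-91 had 32, 43, 45 and 0, both overlapping between the ages. Which heavy and light chains were paired within a cell is not measured in bulk RNA.

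V segment RNA was then set against RNA of the cells that carry it, a ratio chosen after the values were seen. The V reads per read on the 12 B cell markers were 2.59 in aged replicate 1, 5.78 in aged replicate 2, 0.122 in young replicate 1 and 0.117 in young replicate 2. The young libraries gave close values although their V levels differed 120-fold, and both aged libraries lay far above them. The log2 ratio of the age means was 5.13, and 4.44 to 5.60 with each library left out in turn. Without young replicate 1 it was 5.16. Against Cd79a and Cd79b alone, the signaling partners of the B cell receptor, the ratios were 25.0 and 29.9 in aged and 0.764 and 0.921 in young MFP. No test was run, as the exact permutation of 2 against 2 cannot pass 0.05.

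Per read on an immunoglobulin J segment, the V reads were 18.8 and 44.9 in aged and 3.87 and 3.18 in young MFP, again without overlap. The J segments had 154, 1267, 2402 and 22 reads, so the value of young replicate 2 rests on 70 V and 22 J reads. By contrast the Igkv reads per read of Igkc, the kappa constant region, were 0.756 and 0.688 in aged and 0.765 and 0.830 in young MFP. This ratio stayed within a narrow range in all 4 libraries, down to the 44 Igkv and 53 Igkc reads of young replicate 2. The heavy chain departed from that, with 0.101, 0.160, 0.0976 and 0.0161 Ighv reads per heavy constant region read, the lowest in young replicate 2, where Ighm had 1421 counts beside 25 Ighv counts. Per lambda constant region read the Iglv reads were 0.448 and 0.883 in aged and 0.280 and 0.143 in young MFP. The last value rests on 1 Iglv read and 7 constant region reads.

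**Figure D4:**
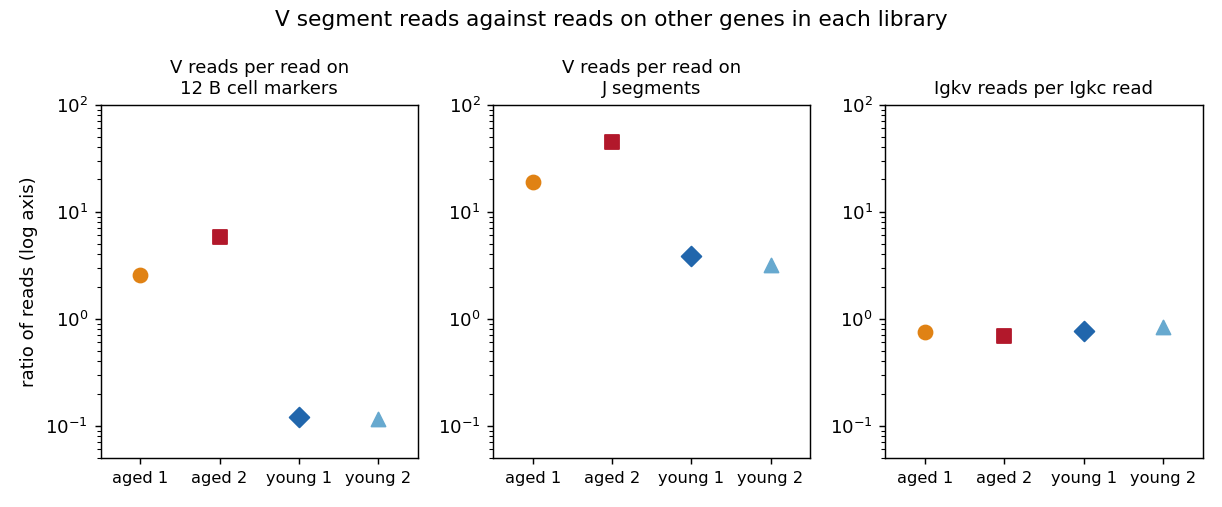
V segment reads per read on 12 B cell marker genes, V segment reads per read on J segments, and Igkv reads per Igkc read, in each library on a common log axis. Both aged libraries lie above both young libraries in the first and second panels, at 2.59 and 5.78 against 0.122 and 0.117 and at 18.8 and 44.9 against 3.87 and 3.18, while the 4 points of the last lie between 0.688 and 0.830. Young replicate 2 rests on 70 V reads, and on 22 J reads in the second panel.

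The constant regions and plasma cell genes were read in the same libraries for their isotypes. Jchain, which links the units of secreted IgA and IgM, had 778 and 10070 counts in aged and 49 and 31 in young MFP, or 6.91 on the log2 scale and 7.18 without young replicate 1 (Benjamini-Hochberg adjusted p = 0.392 by edgeR and 2.19e-09 by DESeq2). Ighg2c, an IgG constant region, had 137 and 2281 counts in aged and 7 and 1 in young MFP, or 8.03 on the log2 scale and 9.82 without young replicate 1, which leaves 1 young count (adjusted p = 0.406 by edgeR and 0.000976 by DESeq2). Ighg3, with 114, 4783, 45 and 0 counts, was also higher in both aged libraries. Ighg1, with 1, 3567, 8 and 0 counts, was not. Ighg2b had 52, 3969, 52 and 2 counts, equal in aged replicate 1 and young replicate 1. Switched Ighg and Igha reads made up 10.7% and 12.4% of the heavy constant reads in aged and 0.443% and 2.84% in young MFP. They were mostly Igha in aged replicate 1 (793 Igha and 304 Ighg counts) and mostly Ighg in aged replicate 2 (1895 and 14600). Ighd, the constant region of naive B cells, made up 1.21% and 0.878% in aged and 33.7% and 5.36% in young MFP, and neither share overlapped between the ages. The fitted values of 7 constant regions were above 0 and of 3 below. Without aged replicate 2 they were above 0 in 4 of 11 and below in 7, with a median of -0.62 on the log2 scale. Without young replicate 1 all 11 were above 0. The young arm was then young replicate 2 alone, with 0 counts of Ighg1 and Ighg3 and 1 of Ighg2c, so this direction is not read. Of the 10 constant regions tested 0 were called by edgeR and 2 by DESeq2, and of the 12 plasma cell genes 0 and 1, Jchain. Over all genes tested the shares called were 0% by edgeR and 3.86% by DESeq2. The ages did not overlap in 40% of those 10 constant regions, against 46.1% of all genes tested. Of the 12 plasma cell genes, the fitted values of 7 were above 0 and of 5 below, with a median of 0.21 on the log2 scale. Tnfrsf13b, a receptor of B cells and plasma cells for survival factors, had 129 and 410 counts in aged and 1981 and 75 in young MFP, a fitted value of -2.03 that became 1.60 without young replicate 1. The plasma cell list summed to 307 and 448 CPM in aged and 299 and 319 CPM in young MFP, a sum led by Xbp1 and Sdc1, which adipose and epithelial cells also express.

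Lists of B cell origin and recruitment were read in the same way. All 12 B cell markers and all 10 T cell markers had fitted values lower in aged MFP, with medians of -2.72 and -3.43 on the log2 scale and 0 called by edgeR or DESeq2, and in each of them the ages overlapped. That direction came from young replicate 1, without which all of them were above 0, with medians of 3.15 and 2.39. The 178 T cell receptor V segments took 144, 641, 8640 and 157 counts, with 13, 41, 99 and 3 detected, so that they were highest in young replicate 1. Rag2, needed for V(D)J recombination, was at 0 counts in all 4 libraries, and Rag1 had 0, 4, 5 and 1. The 6 genes of B cell precursors summed to 0.159, 0.370, 4.04 and 0.149 CPM, and Dntt, which adds bases at the joints, had 176 counts in young replicate 1 against 1, 8 and 2 in the others. The macrophage and B cell homing lists had 0 genes called by either tool. Tissue lists differed between the ages as well, since the 12 skeletal muscle genes summed to 43350 and 70403 CPM in aged and 11455 and 15920 CPM in young MFP, and the 8 adipocyte genes to 12513 and 9987 CPM against 7982 and 8322 CPM. The part of tissue composition in the V segment values was not tested.

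Along the chromosomes the segments nearest to the J segments or to Igkc held a larger share of the reads in the aged libraries than in young replicate 1. The 39 functional Ighv segments nearest to Ighj4, within 834 kb, took 41.9% and 42.7% of the functional heavy reads in aged replicates 1 and 2 and 26.5% in young replicate 1. The 34 functional Igkv segments within 826 kb of Igkc took 51.1%, 57.5% and 31.1%. Young replicate 2 gave 20.8% and 27.3% on its few reads. A few leading segments lie in these groups. They are Ighv11-2, with 14.9% of the heavy reads of aged replicate 1, and Ighv14-4 and Ighv14-3, with 22.1% and 7.65% in aged replicate 2. In the kappa group they are Igkv3-2, with 24.3% and 14.1% in the aged libraries, Igkv3-5, with 6.39% and 9.29%, and Igkv6-20, with 16.1% in aged replicate 2. Shares without these segments were not computed, so no preference for position apart from them is shown. The orientation of a kappa segment sets whether it joins by deletion or by inversion, and functional Igkv segments on the plus strand took 63.4%, 42.9%, 43.8% and 29.5% of the reads in the 4 libraries.

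**Figure D5:**
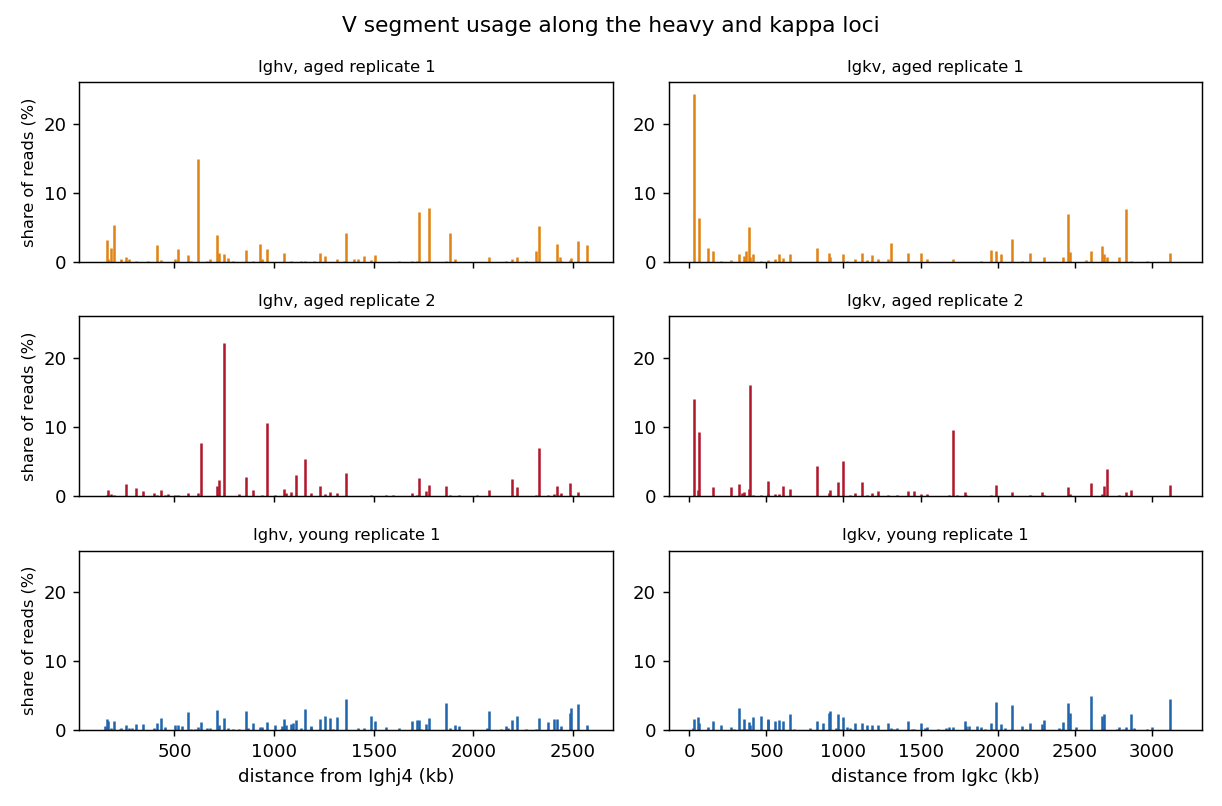
Share of reads on each V segment against its distance in kb from Ighj4 for the heavy locus (left) and from Igkc for the kappa locus (right), in the 3 libraries with more than 1000 V reads. Single tall lines stand in the aged libraries, the tallest at 24.3% for Igkv3-2 in aged replicate 1 and 22.1% for Ighv14-4 in aged replicate 2, while in young replicate 1 every line stays under 5% and the segments used spread over both loci.

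Sequence likeness limits how finely these counts can be read. The median functional segment was 94.7% identical to its nearest functional relative of the same locus over the V exon, 104 of 218 were at 95% or more, and 2 were identical to another. A median of 77.4% of the 50-base windows of a functional exon occurred in no other V segment, and 3 segments had no such window. Detected functional segments had a lower median, 77.2%, than the 30 not detected, 91.3%, although single segments such as Ighv11-1, with 51.2% and 0 counts, and Igkv6-29, with 47.0% and at most 1 count, were undetected beside a close relative. The handling of reads that fit several segments is not given in the sources used here, and somatic mutations, which the counts do not show, add further mismatches.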

How the data were processed

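Total RNA of whole MFP was measured in 4 libraries, grouped by age and numbered from the sample labels. Per the labels, RNA was depleted of ribosomal RNA and made into directional libraries. The authors deposited whole-number read counts per gene, with no normalization and no filter, and the submitters' processing notes name GRCm38 and featureCounts. The aligner, the strand setting and the handling of reads on several genes are not given in the sources used here. Library totals were 83936413 and 98402403 (aged) and 77661766 and 68803304 (young) counts.

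From these counts, edgeR 4.0.16 in R 4.3.3 was used with filterByExpr, TMM scaling and the quasi-likelihood test with age as the only term, adjusted by Benjamini-Hochberg over all 22485 genes kept. DESeq2 1.42.0 was run as an alternative. The SE of a log2 fold change was derived as that size over the root of F. Shares, entropy and exact hypergeometric rarefaction were computed on unscaled counts in Python 3.11.15. V exons, identities and windows of 50 bases came from GENCODE M21 transcripts. A segment counted as detected above 3 counts. Shares of reads were not scaled by length, since V exons are nearly equal in length (median 305 bases). They compare segments only as far as reads can be assigned, with unique windows from 0% (Ighv1-72) to 100% (Igkv14-126) of the exon. The code was tested on simulated data.

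The V segments, the gene lists and the comparisons were chosen with earlier results of these data known. Named in the text were the 3 segments with most counts per library and locus, every Iglv segment, the 3 largest fitted changes in each direction, those called by either tool, and the 2 genes of a list with the largest change where they bear on a V segment result. Segments outside that rule were chosen after their values were seen: Ighv12-3 and Igkv4-91, near relatives of a leading segment, those at 5% or more, and those without overlap between the ages. Alternatives were other scalings, filters, the replicate number as a block, DESeq2, other measures of diversity and detection, functional genes only, and leaving out each library. The lambda locus was described without a diversity measure because it holds 3 segments.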

Additional observations from a re-analysis of the deposited data

How the results depend on the processing

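No V segment was called by edgeR under any scaling or without a filter (241 segments tested), where 0 genes of the whole table were called either. DESeq2 called 1 V segment, beside 3.86% of 22385 genes in all. No V segment had 10 counts in every library. Same-numbered libraries did not deviate together (correlation -0.48 over all genes tested and -0.17 over 127 V segments), so the numbers do not pair them. With the replicate block 0 segments were called, as over the whole table, and 0 passed an unadjusted p of 0.05. The mean log2 difference of summed V level was 3.86, against 2.56 for the log2 ratio of the age means. That mean is the same under any pairing of libraries, so the rise comes from averaging log2 values and not from the block. A block with crossed numbers, chosen after the data were seen, called 0, with 47 of 127 at an unadjusted p of 0.05. It joined the library with less V RNA of each age, and the share over all genes under it was not computed, so the 47 is not read. Leaving out each library moved the log2 ratio of summed V level between -0.69 and 8.47, and that of V reads per B cell marker read between 4.44 and 5.60. For single segments, the log2 fold change ranged from -3.34 to 2.46 (Ighv1-81), -0.72 to 10.21 (Igkv4-80), -0.51 to 10.03 (Igkv6-20) and -5.09 to 8.50 (Iglv3). Segments detected, 34 more in aged MFP, ranged from -59.5 (without young replicate 2) to 127.5 (without young replicate 1). Counting segments with at least 1 read at an equal number of V reads in the 3 richer libraries, a setting added later that changes threshold, depth and libraries together, gave -74.1. Scaling by total counts shifted the median of all genes to -0.21 and that of the V segments to 1.30, and with no filter the latter was 0.49. Reads limit young replicate 2 most, where 70 V counts fix neither its leading segments nor its diversity, and 2 libraries per age limit every comparison of the ages.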
